A study of Mus musculus with 26 samples.

Results

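The RNA of mouse 8-cell blastomeres numbered 11 to 17 was compared with that of blastomeres numbered 20 to 25 to find out which kinds of RNA made up the difference in detection between them. The members were chosen by the number that closes each sample title. The range 11-17 held 3 cells with a column in the RNA tables (cells 11, 16 and 17), and the range 20-25 held 6 cells (cells 20 to 25). The other RNA cells of the range 11-17 had no column, while every cell of the range 20-25 had one. The study left cells that failed its quality control out of its analysis. The cells with a column may therefore be a selected part of the range 11-17. These 9 RNA samples were part of a series of 26, made from single blastomeres by scRR-seq. In that method the cell is lysed, its chromatin is caught on magnetic beads for DNA sequencing, and the RNA left in the supernatant is made into full-length libraries of total RNA. All cells came from C57BL/6 embryos fertilised in vitro and were taken up by hand with a pipette. The labels gave no treatment. Cell 11 and cells 20 and 21 belonged to embryo 1, and cells 16 and 17 and cells 22 to 25 belonged to embryo 2. Among the cells with a column, each range therefore held the embryos in the same 1 to 2 proportion. The replication scores of the same cells called at most 3.54% of genome bins replicated in embryo 1 and at least 62.4% in embryo 2. The study classed representative uniform profiles from embryo 1 as G1 or G2/M and mixed profiles from embryo 2 as S phase. A low score in embryo 1 therefore does not show that the genome was unreplicated. The GEO labels named no protocol for a cell. The study's own sample list assigned cells 11 to 17 to scRR3, its version with a larger lysis volume and a cDNA purification step, and cells 20 to 25 to scRR1, its version with a smaller volume and without that step. The protocol version and anything else that went with the number of a cell cannot be told apart. The embryo is the biological replicate and there were 2, so an exact sign permutation over embryos could not go below p = 0.5 and no p-value was computed. Differences are given as the range 11-17 minus the range 20-25, beside the difference within each embryo and the SD between cells of the same embryo and range (5 degrees of freedom).

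A gene usually gives rise to several transcripts. Besides the mRNA, these include forms that retain an intron, forms with an early stop codon that are subject to nonsense-mediated decay, and processed transcripts without an open reading frame. Around the coding genes the genome holds long non-coding RNAs, small RNAs such as snoRNAs, which guide the chemical modification of ribosomal RNA, and processed pseudogenes, which are copies of spliced mRNAs inserted elsewhere in the genome and often nearly identical to their parent gene. Whether such a form is detected in a single cell depends on its level, on how much of the RNA is converted into cDNA and on how reads shared between similar sequences are assigned.

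Marker genes were checked in the tables for each cell. Of 14 blastomere markers, 11 to 13 were detected (TPM > 1, TPM being the unit of both tables, the share of a transcript in the RNA of a cell scaled to a fixed total) in each cell. Of 10 cumulus or granulosa markers, 1 to 3 were detected, and of 8 sperm markers and 8 fibroblast or blood markers, 0 or 1 in each case. Among the blastomere markers, Pou5f1 and Krt8 did not overlap between the ranges, and Krt8, a keratin, had 7.15, 20.01 and 14.3 TPM in cells 11, 16 and 17 and 0 to 5.40 (median 1.36) TPM in cells 20 to 25. Over all 24206 genes above 0 in at least 1 cell, 998 were higher in every cell 11-17 and 171 were lower. The genes of the mitochondrial genome summed to 59813 to 68217 TPM in cells 11-17 and to 42765 to 182194 TPM in cells 20-25, and TPM values of the other genes share what is left.

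More genes were detected in every cell of the range 11-17 than in any cell of the range 20-25, and the excess was larger for transcripts than for genes. The number of genes was 13319, 12978 and 12411 in cells 11, 16 and 17. In cells 20 to 25 it was 11960, 11088, 11591, 11058, 11931 and 11185. Cell 17 was the lowest of the first range and cell 20 the highest of the second. The difference of 1434 genes was 12.5% of the mean of cells 20-25, against an SD of 451 genes between cells. The number of transcripts was 26017, 26040 and 23135 in cells 11, 16 and 17, and 17696 to 20860 (median 19425) in cells 20 to 25. The difference of 5749 transcripts was 29.8%, against an SD of 1614. Per gene with a detected transcript, 1.98, 2.03 and 1.89 transcripts were detected in cells 11, 16 and 17 and 1.602 to 1.77 (median 1.69) in cells 20 to 25. The difference was 0.323 within embryo 1 and 0.249 within embryo 2.

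**Figure D1:**
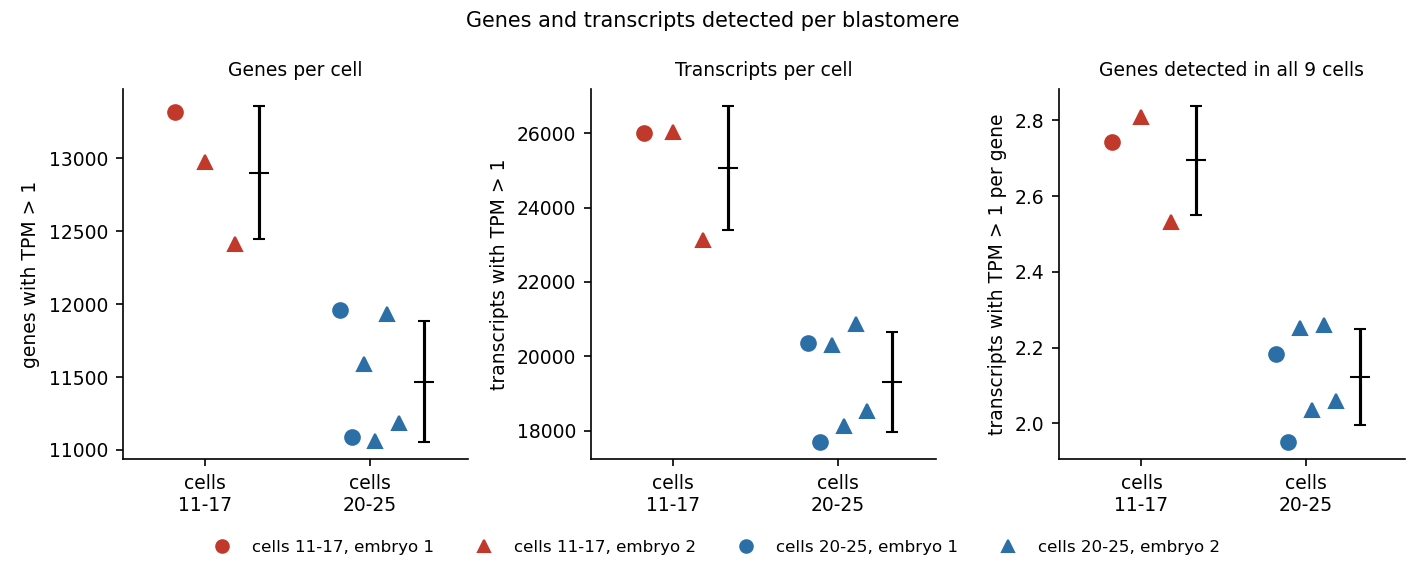
Number of genes (left) and of transcripts (middle) with TPM > 1 in each blastomere, and number of transcripts with TPM > 1 per gene over the 6417 genes detected in all 9 cells that have at least 2 annotated transcripts (right). Each point is a cell, coloured by number range and shaped by embryo, and the bars show the mean ± SD of a range. The axes do not start at 0. In all 3 plots the 3 cells of the range 11-17 lie above the 6 cells of the range 20-25.

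A set of 3 cells from the range 11-17 also covered more genes than any set of 3 cells from the other range with the same embryos. Cells 11, 16 and 17 together had 16585 genes detected in at least 1 cell and 9835 in all 3. The 12 sets of 1 embryo 1 cell and 2 embryo 2 cells from the range 20-25 had 14725 to 15368 genes in at least 1 cell and 8054 to 8854 in all 3. The share of genes found in all 3 cells was 59.3% in the first range and 54.7 to 57.6% in the second. This comparison was chosen after the values had been seen.

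Protein-coding genes made up 61.4% of the difference in genes, but by proportion the excess was larger for processed and unprocessed pseudogenes and for snoRNA genes. Protein-coding genes numbered 10707, 10359 and 9775 in cells 11, 16 and 17 and 8927 to 9866 (median 9342) in cells 20 to 25. Cell 24 had more of them than cell 17, so the ranges overlapped. The difference of 881 genes (9.37%) was 1246 within embryo 1 and 698 within embryo 2. Processed pseudogenes made up 15.6% of the difference, with 713, 736 and 821 detected in cells 11, 16 and 17 and 427 to 648 (median 538) in cells 20 to 25. The excess of 41.9% came without overlap, with cell 22 the highest of the second range. Unprocessed pseudogenes, which arise by duplication of a gene, were also higher without overlap, at 114, 99 and 94 against 60 to 88 (median 74.5).

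Long non-coding RNA genes were detected at 1080, 994 and 941 in cells 11, 16 and 17 and at 748 to 911 (median 807) in cells 20 to 25. The difference was 198 genes (24.5%), with an SD of 58.2 between cells. It depended on the threshold, at 15.3 genes for TPM > 5, and was reversed to -1 gene for TPM > 10. Cell 20 was the highest of the second range and came closest to cell 17. Among the classes of long non-coding RNA, the excess was 22.9% for intergenic RNAs (lincRNA), 28.4% for antisense RNAs, 23.2% for processed transcripts and 25.8% for sense intronic RNAs, each without overlap. Bidirectional promoter RNAs overlapped, at 19 to 30 against 11 to 32 genes.

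Among small RNAs, snoRNA genes showed the largest proportional excess of the classes compared. The number of snoRNA genes was 76, 68 and 77 in cells 11, 16 and 17 and 35 to 54 (median 46) in cells 20 to 25, an excess of 64.9% without overlap. Annotated miRNA genes, whose values in total RNA come from fragments long enough to be sequenced and not from the mature miRNA, overlapped, at 115 to 169 against 79 to 119. The snRNA genes, which include many copies of spliceosomal RNA genes, ran the other way on average, at 23 to 79 against 24 to 96. They split across the ranges, with 23 to 34 in cells 11, 16, 20 and 22 and 77 to 96 in the other 5 cells.

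The share of a cell's TPM in each biotype differed far less than the number of genes. Protein-coding genes held 71.96 to 73.4% of TPM in cells 11-17 and 70.1 to 77.2% in cells 20-25. For lincRNA genes the shares were 0.679 to 0.946% and 0.659 to 0.907%, and for snoRNA genes 0.161 to 0.227% and 0.124 to 0.279%, so a larger number of detected genes went with an overlapping share of the RNA. Processed pseudogenes were an exception, at 5.30 to 6.17% against 3.31 to 5.01% of TPM without overlap. Transcribed unprocessed pseudogenes were the other class above 0.1% of TPM in every cell of the range 11-17 that did not overlap, at 0.127 to 0.204% against 0.0825 to 0.122%.

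At the level of transcripts, mRNA isoforms made up the largest part of the difference and transcripts with a retained intron were the next. Protein-coding transcripts differed by 2883 per cell, which was 50.2% of the difference in transcripts and an excess of 25.3%. Retained intron transcripts numbered 3847, 4317 and 3529 in cells 11, 16 and 17 and 2413 to 3073 (median 2757) in cells 20 to 25, which was 20.1% of the difference and an excess of 42.03%. Processed transcripts were 37.7% and transcripts subject to nonsense-mediated decay 35.1% more numerous. None of these 4 classes overlapped between the ranges. Retained intron and nonsense-mediated decay transcripts together did not hold more of the TPM of protein-coding genes, at 12.8 to 14.1% in cells 11-17 and 12.2 to 16.1% in cells 20-25. That share differed by -2.74 percentage points within embryo 1 and by 0.551 within embryo 2, so the embryos did not share a direction.

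**Figure D2:**
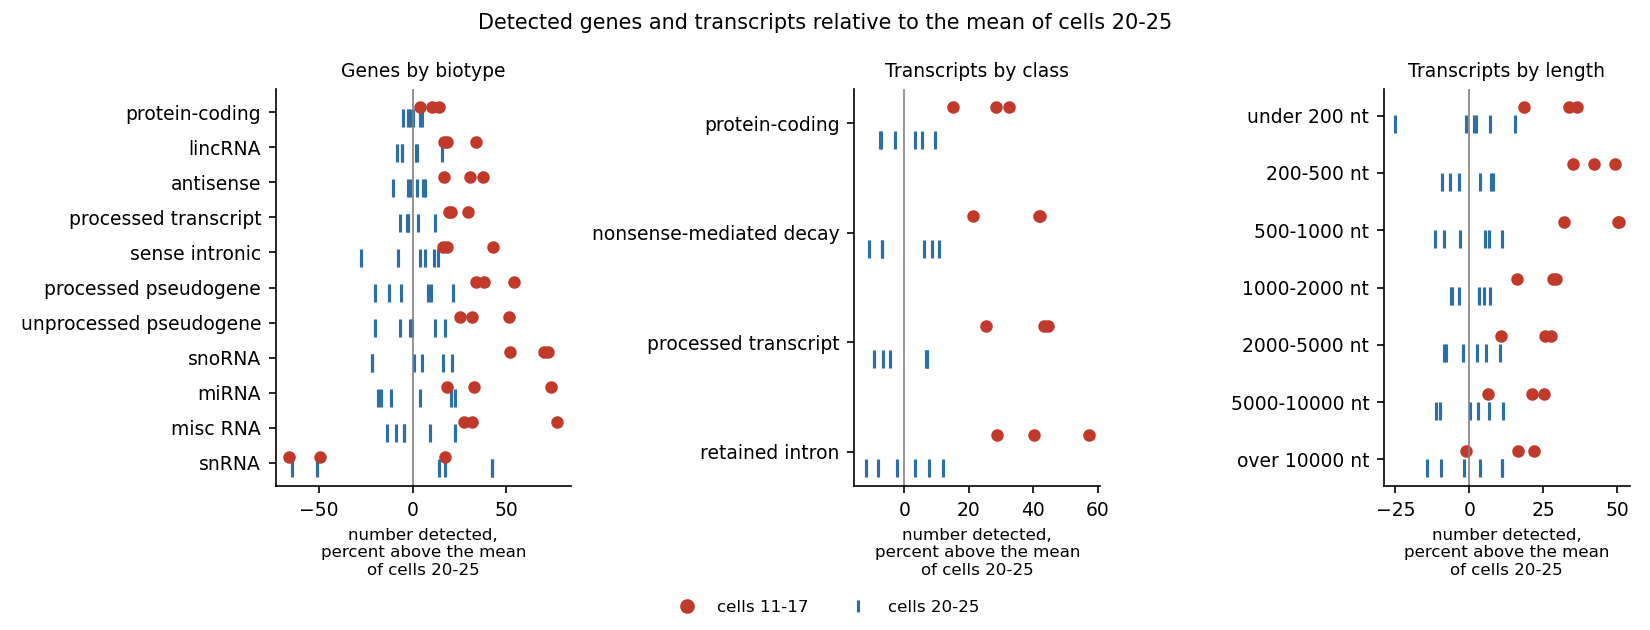
Number of detected genes by biotype (left) and of detected transcripts by transcript class (middle) and by spliced length (right). The x axis gives each cell's number as percent above or below the mean of cells 20-25. Red points are cells 11, 16 and 17 and blue ticks are cells 20 to 25. The snoRNA genes lie farthest to the right on average and the snRNA genes are scattered on both sides of 0.

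The difference in genes lay mostly in genes of low level. The level of a gene was its mean TPM over the 9 cells, so it was read from the values being counted and the bins are a description. Genes with a mean of 0.1 to 1 TPM gave 34.2% of the difference in detected genes, those of 1 to 3 TPM gave 34.8%, and those of 3 to 10 TPM gave 24.6%. At 1 to 3 TPM, 59.2, 58.9 and 51.4% of 3406 genes were detected in cells 11, 16 and 17 and 37.4 to 48.5% in cells 20 to 25. At 3 to 10 TPM the values were 84 to 89.1% and 70.6 to 81.04%. Genes of 10 TPM or more gave 4.31%, 1.57% and 0.604% of the difference in the bins up to 30, up to 100 and above 100 TPM, where at least 92.7% of genes were detected in every cell. The genes missed at a low level were mostly listed at 0 rather than just under the threshold. At 3 to 10 TPM, 8.40 to 10.8% of genes were listed at 0 in cells 11-17 and 14.96 to 20.2% in cells 20-25.

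Raising the threshold made the excess smaller but left a part of it for genes. A count at a high threshold also moves with the level of genes detected in every cell. It therefore does not place the difference in genes of low level. The excess in genes was 17.3% at TPM > 0, 8.92% at TPM > 5 and 7.15% at TPM > 100, and the ranges overlapped from TPM > 5 upward. For transcripts it was 35.5% at TPM > 0, 14.6% at TPM > 10 and 1.41% at TPM > 100, where cell 20 had the most transcripts of all cells.

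Processed pseudogenes of a high mean level were still detected in fewer of cells 20-25 (classes by level were added after the values had been seen). The mean runs over all 9 cells, so a pseudogene that is high in cells 11-17 alone can enter the bin through them, and a part of the difference is then built in. At 30 to 100 TPM, 88.9, 88.9 and 90.7% of 54 processed pseudogenes were detected in cells 11, 16 and 17 and 59.3 to 79.6% in cells 20 to 25. At the same level, protein-coding genes were at 99.7 to 100% and 99.6 to 99.8% and long non-coding RNA genes at 93.9 to 96.97% and 92.4 to 100%, with overlap in both.

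**Figure D3:**
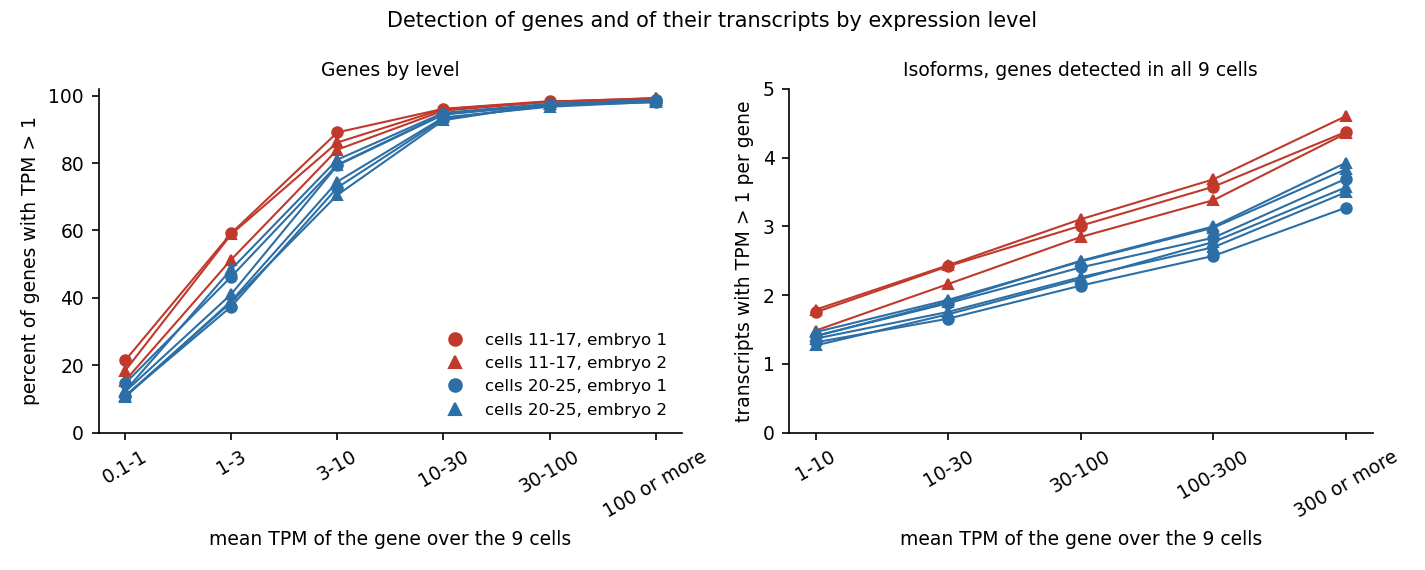
Percent of genes with TPM > 1 by the mean TPM of the gene over the 9 cells (left), and number of transcripts with TPM > 1 per gene in the 6417 genes with at least 2 annotated transcripts that were detected in all 9 cells (right). Each line is a cell. The cells separate for genes below 10 TPM and converge above it, while the number of transcripts per gene stays apart at every level.

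By spliced length, the excess was largest between 200 and 1000 nt and smallest for the longest transcripts. Transcripts of 500 to 1000 nt gave 37.1% of the difference. Of these, 16.9, 16.9 and 14.8% were detected in cells 11, 16 and 17 and 9.94 to 12.5% in cells 20 to 25, an excess of 44.3%. The excess was 29.5% under 200 nt, 42.1% at 200 to 500 nt, 24.7% at 1000 to 2000 nt and 21.3% at 2000 to 5000 nt, all without overlap. Above 5000 nt, 26.5, 27.2 and 23.1% of transcripts were detected in cells 11, 16 and 17 and 19.3 to 24.3% in cells 20 to 25. Cells 20 and 24 exceeded cell 17, and the difference of 3.75 percentage points compared with an SD of 2.37 between cells. Above 10000 nt the excess was 12.5%, with overlap. A list of 24 very long mRNAs had 21 or 22 members detected in cells 11-17 and 18 to 23 in cells 20-25. It includes Huwe1, a ubiquitin ligase, and Mdn1, an assembly factor of the large ribosomal subunit. None of its 16 members at the level tested below was without overlap, beside 8.85% higher and 2.33% lower of all genes tested. Huwe1 had 176, 173 and 59.2 TPM in cells 11, 16 and 17 and 33.5 to 106 (median 45.4) TPM in cells 20 to 25, with cell 17 inside the other range. Mdn1 lay the other way, at 77.4, 84.8 and 86.1 TPM in cells 11, 16 and 17 and 82.2 to 208 (median 154) TPM in cells 20 to 25, also with overlap. By number of exons, the excess was 26.8 to 32.4% in all of 5 bins from 1 exon to 11 or more, without overlap and in no order. The levels of protein-coding genes did not follow the order of detection by length. Their median difference of log2(TPM + 1) was 0.18 for the 372 genes whose longest transcript was under 1000 nt, of which 5.38% were higher without overlap. It was 0.31 for the 1075 genes of 5000 to 10000 nt (9.58% higher) and 0.48 for the 112 genes of 10000 nt or more (8.93% higher), beside 8.96% of all protein-coding genes tested.

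The ranges differed along the GC content of the RNA, a property examined after the first values had been seen. Over transcripts of the nuclear genome, those under 40% GC were detected at 10.9 to 12.5% in cells 11-17 and 9.82 to 12.4% in cells 20-25, an excess of 2.37% with overlap. The excess was 17.1% at 40 to 45% GC, 28.98% at 45 to 50%, 37.9% at 50 to 55%, 40.9% at 55 to 60% and 53.2% at 60% or more, each without overlap. The share of TPM followed. Nuclear transcripts under 40% GC held 3.86, 4.26 and 4.18% of nuclear TPM in cells 11, 16 and 17 and 10.03, 5.56, 12.5, 6.49, 9.41 and 10.2% in cells 20 to 25. Transcripts of 50 to 55% GC held 29.5 to 30.00% and 22.1 to 26.2%. Cells 21 and 23 lay nearest to the range 11-17 in both bins. At 60% GC or more, the shares overlapped, at 7.93 to 9.63% and 4.73 to 12.9%.

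Single genes showed the same order. For the 6860 genes whose log2(TPM + 1) averaged 3 or more over the 9 cells, the median difference between the ranges was 0.27 on that scale, so every value below is to be read against 0.27. Among protein-coding genes the median was -0.37 for the 437 genes whose longest transcript was under 40% GC, -0.09 at 40 to 45%, 0.24 at 45 to 50%, 0.44 at 50 to 55%, 0.57 at 55 to 60% and 0.63 at 60% or more. The mean over the genes of a bin in each cell overlapped between the ranges in the 3 bins below 50% GC and not in the 3 bins above. Under 40% GC the means differed by -0.42 with an SD of 0.39 between cells, at 40 to 45% by -0.09 with an SD of 0.28, and at 60% or more by 0.65 with an SD of 0.16. Within embryo 1 the medians ran from -0.15 to 0.51 and within embryo 2 from -0.46 to 0.66 over the same bins. The order also held within each of 3 length classes of the longest transcript: under 2000 nt the medians ran from -0.72 to 0.54, at 2000 to 4000 nt from -0.42 to 0.73, and at 4000 nt or more from -0.24 to 0.82.

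**Figure D4:**
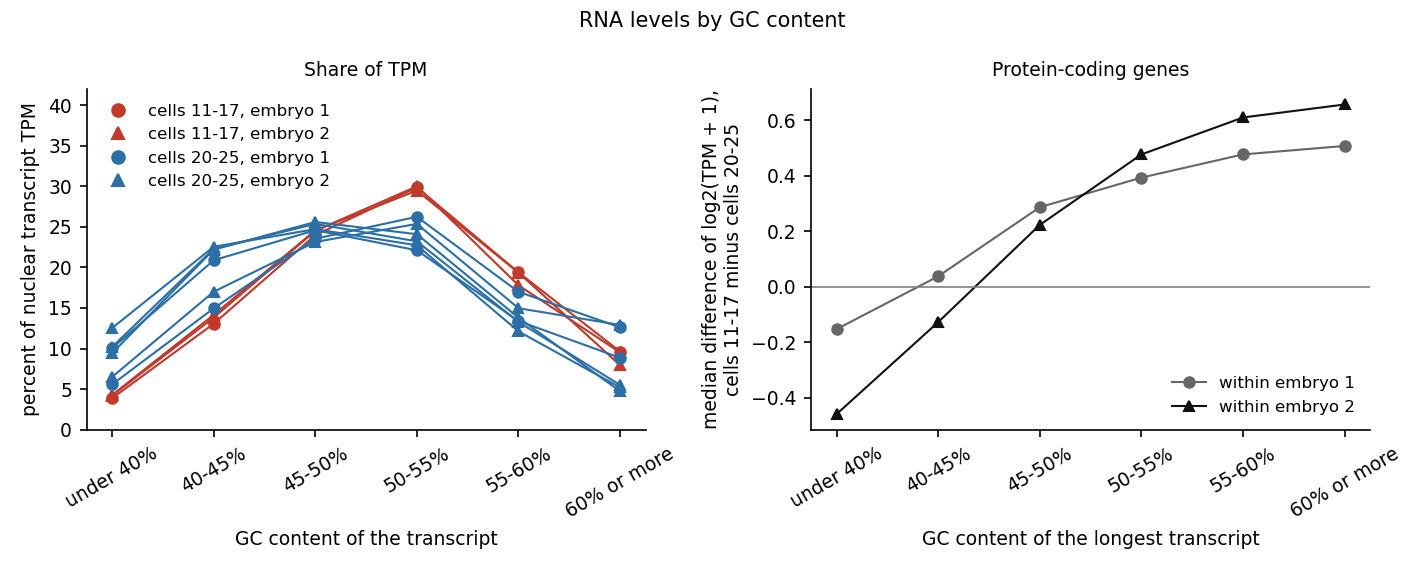
Share of the TPM of nuclear transcripts by GC content of the transcript, 1 line per cell (left), and median difference of log2(TPM + 1) of protein-coding genes between the ranges, by GC content of the longest transcript, within each embryo (right). The 3 cells of the range 11-17 have the smallest shares under 40% GC and the largest at 50 to 55%. The median difference is below 0 under 40% GC and above 0 from 45% GC in both embryos.

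Of the 6860 genes, 607 (8.85%) were higher in every cell 11-17 than in any cell 20-25, and 160 (2.33%) were lower. When each cell was divided by its median TPM over genes detected in every cell, 285 were higher and 295 lower, so the split of the calls in favour of higher values rests on the scale. Of the protein-coding genes among them, the 553 higher ones had a median GC content of 53.4% and the 129 lower ones of 42.5%, beside 48.9% over the 6175 tested. Under 40% GC, 2 genes were higher and 35 lower of 437, and at 55 to 60% GC 177 were higher and 2 lower of 996. When the mean of the protein-coding genes of each GC bin was set equal in every cell, 209 genes were higher and 230 lower. This alternative was chosen after seeing the data. Equal bin means also take out the overall shift in scale, as the division by the median did. These counts are therefore to be read beside 285 and 295 and not beside 607 and 160.

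By class, 38 of 240 pseudogenes (15.8%) were higher and 7 (2.92%) lower, with a median difference of 0.66. Of 247 long non-coding RNA genes, 9 (3.64%) were higher and 17 (6.88%) lower, with a median of 0.05. Of all genes tested, 8.85% were higher and 2.33% lower. The classes and the GC bins were compared after their values had been seen. The mean level used as filter gives more weight to the range with more cells. A gene listed at 0 throughout that range therefore passes less easily than one listed at 0 throughout the other. Without the filter, 998 genes of all classes were higher in place of 607, and 171 were lower in place of 160. How far the counts of long non-coding and small RNA genes rest on the filter was not tested. Of the 17 lower long non-coding genes, 11 overlapped an exon of a coding gene, 10 of them on the opposite strand, beside 72 of the 247 tested. Whether the authors' counting used strand is not given in the sources used here, and without strand the reads of such pairs cannot be told apart.

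The number of isoforms detected per gene differed also where the gene itself was detected in every cell. Over the 7216 genes with TPM > 1 in all 9 cells, 18390, 18813 and 17041 transcripts were detected in cells 11, 16 and 17 and 13301 to 15291 (median 14398) in cells 20 to 25. The difference of 3667 was the larger part of the difference in transcripts, and the transcripts of other genes differed by 2082. Over the 6417 of these genes with at least 2 annotated transcripts, 2.74, 2.81 and 2.53 transcripts per gene were detected in cells 11, 16 and 17 and 1.95 to 2.26 (median 2.12) in cells 20 to 25. Over the 6397 of them with a transcript TPM above 0 in every cell, the most abundant transcript of a gene held on average 71.1 to 73.99% of its TPM in the first range and 77.3 to 81.7% in the second. Among these genes, at a mean of 300 TPM or more, 4.35 to 4.61 transcripts per gene were detected against 3.27 to 3.93, and the ranges did not overlap in any of 5 level bins. Genes with 5 or more detected transcripts numbered 845, 938 and 688 in cells 11, 16 and 17 and 235 to 456 (median 342) in cells 20 to 25.

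Of 12189 genes with at least 3 annotated transcripts, 292 (2.4%) had more transcripts detected in every cell 11-17 than in any cell 20-25, and 5 (0.041%) had fewer. The 5 with the largest difference in number were Hnrnpk, an RNA-binding protein of the hnRNP family, Rbm39 and Srsf11, which are splicing factors, Sun1, a protein of the inner nuclear membrane, and Ube2d3, a ubiquitin-conjugating enzyme. Of 34 annotated Hnrnpk transcripts, 11, 14 and 11 were detected in cells 11, 16 and 17 and 4, 3, 10, 5, 5 and 3 in cells 20 to 25. The level of the gene was 647 to 1031 TPM in the first range and 696 to 1059 TPM in the second, which overlapped. A retained intron transcript, Hnrnpk-217, held 38.7 to 54.8% of that level in cells 11-17 and 69.6 to 80.2% in cells 20-25, while the coding transcript Hnrnpk-223 held 9.69 to 12.4% in the first range and was listed at 0 in every cell of the second. Of 25 Rbm39 transcripts, 13 were detected in each cell of the range 11-17 and 4 to 10 in cells 20 to 25, and the level of Rbm39 overlapped. The coding transcript Rbm39-220 held 14.1 to 30.96% of it in cells 11-17 and was listed at 0 in every cell 20-25. The 5 genes with fewer transcripts were Eif3m, a subunit of a translation initiation factor, Dnajc19, a mitochondrial import protein, Herc1, a ubiquitin ligase, Copb2, a vesicle coat subunit, and Ramac, an activator of mRNA cap methylation, whose identical pseudogene Gm9830 had a higher level. Eif3m had 1 or 2 transcripts detected in cells 11-17 and 3 or 4 in cells 20-25, and the gene was also lower, at 229, 256 and 264 TPM in cells 11, 16 and 17 and 470.1 to 746 (median 555) TPM in cells 20 to 25.

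Along the gene, the transcripts to which the TPM was assigned in cells 11-17 reached nearer to the 5' end and stopped farther from the 3' end (a measure added after the first values had been seen). Over 6238 coding genes with several transcripts, the share of a gene's exonic bases that lay 5' of its transcripts, weighted by TPM, was 10.03, 10.1 and 11.5% in cells 11, 16 and 17 and 11.6 to 13.5% in cells 20 to 25. The share that lay 3' of them was 15.4, 15.4 and 14.2% and 12.4 to 13.4%. Neither overlapped. The 5' share was lower in every cell 11-17 in 304 genes (4.87%) and higher in 214 (3.43%), and the 3' share was higher in 385 (6.17%) and lower in 65 (1.04%). Transcripts that cover the 5' part of a gene and leave out at least 25% of its exonic bases at the 3' end were detected at 23.9 to 29.9% against 15.1 to 19.7%, and those that leave out as much at the 5' end at 43.7 to 45.4% against 38.00 to 39.95%.

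Of 5460 genes with a mean of at least 10 TPM and several transcripts, 54 (0.989%) had 1 transcript as the most abundant in all 3 cells of the range 11-17 and another in all 6 cells of the range 20-25. In 36 of the 54 the transcript of the first range was the longer, and in 37 fewer exonic bases of the gene lay 5' of it. The 5 with the highest mean TPM all encode ribosomal proteins, namely Rps25, Rpl7, Rps7, Rps13 and Rpl30. For Rpl7 the 838 nt coding transcript Rpl7-205 held 52.3 to 62.03% of the gene in cells 11-17 and 25.3 to 39.3% in cells 20-25, and the 421 nt processed transcript Rpl7-203, with 70.7% of the exonic bases of the gene 5' of it, held 18.2 to 34.3% and 49.9 to 72.2%. For Rps7 the coding transcript Rps7-203 held 45.2 to 81.9% and 14.8 to 29.1% and the retained intron transcript Rps7-205 held 0.711 to 43.4% and 60.9 to 77.8%. For Rps13 the shares were 55.5 to 95.9% and 11.03 to 48.3% of the coding transcript Rps13-201 and 2.36 to 43.96% and 51.00 to 88.01% of the retained intron transcript Rps13-206. Cell 11 lay farthest from cells 20-25 in Rps7 and Rps13, and cell 17 lay nearest to them. For Rpl30, Rpl30-206, a coding transcript of 505 nt, held 30.7 to 38.9% and 67.9 to 86.96%. The level of the whole gene overlapped between the ranges for Rps25, Rpl7, Rps7 and Rps13, and Rpl30 was lower in cells 11-17, at 1095, 1004 and 1104 TPM against 1155 to 2462 (median 1686) TPM.

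**Figure D5:**
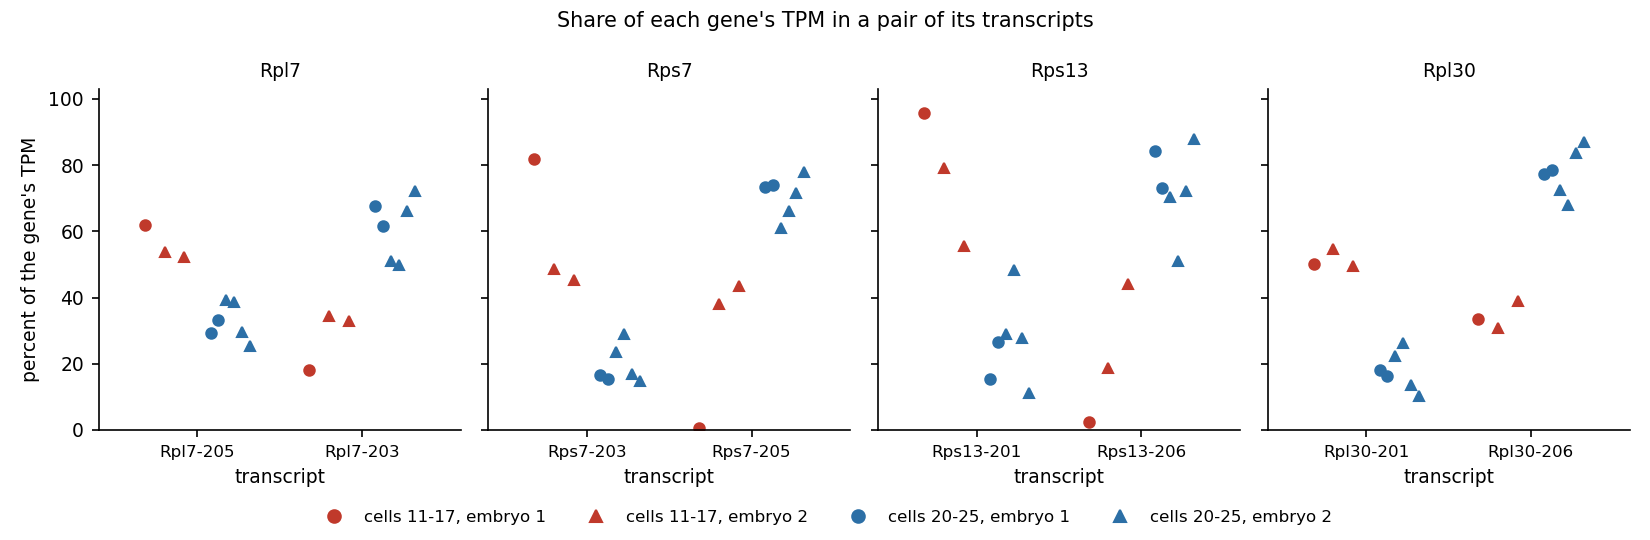
Percent of the TPM of Rpl7, Rps7, Rps13 and Rpl30 in the transcript that was most abundant in cells 11-17 (left in each plot) and in the one that was most abundant in cells 20-25 (right in each plot). Each point is a cell. In each gene the ranges separate in opposite directions for the 2 transcripts.

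Of the 607 higher genes, the 10 with the largest difference were all processed pseudogenes with a near-identical coding gene. Their values are uncertain, because the assignment of shared reads decides between the copies. The ranking depends on the filter on mean level, which a gene listed at 0 in cells 20-25 can pass only through cells 11-17. The snoRNA gene Gm22744 and the annotated miRNA gene Gm23268 fell below that filter, with log2(TPM + 1) differences of 7.38 and 6.78. So did the processed pseudogenes Gm10241 (8.34) and Gm10182 (7.31). All of these were listed at 0 in every cell 20-25. That the 10 were all pseudogenes therefore rests in part on the filter. Gm8203, a copy of the histone variant gene H2afz on chromosome 6, had 777, 517 and 568 TPM in cells 11, 16 and 17 and was listed at 0 in all 6 cells of the range 20-25. Over the 387 bases of Gm8203 the identity with an H2afz transcript was 100%. H2afz itself had 483, 441 and 493 TPM in cells 11, 16 and 17 and 1258, 732, 596, 601, 1566 and 1110.5 TPM in cells 20 to 25. The sum over the 4 genes of this sequence family was 1267, 967 and 1068 TPM and 601 to 1572 (median 924) TPM, and the ranges of the sum overlapped. The opening 120 bases of Gm8203 (GRCm38, chr6:116173737-116174123, plus strand) are shown because the same 120 bases, with the start codon in capitals, occur in 3 of 7 annotated H2afz transcripts, so that a read within them fits the gene and its copy.
Gm8203: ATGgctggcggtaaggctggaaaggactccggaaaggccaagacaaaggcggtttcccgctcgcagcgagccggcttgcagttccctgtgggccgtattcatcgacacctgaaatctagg

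The next genes repeated the pattern. Gm4617, a copy of the prothymosin gene Ptma, had 679, 541 and 469.6 TPM in cells 11, 16 and 17, 3.88 TPM in cell 23 and 0 in the other 5 cells of its range. The family sum of Gm4617 was 2061 to 2249 TPM in cells 11-17 and 1113 to 3338 TPM in cells 20-25. Gm48583 (copy of Rbm3, a cold-inducible RNA-binding protein), Gm15452 (Cks2, a cyclin-dependent kinase subunit), Gm15387 (Hmgb1, a chromatin protein), Gm6055 (Map1lc3b, of autophagy), Ppp1ccb (Ppp1cc, a phosphatase subunit), Gm10443 (Rps28), Gm6863 (Naca, of nascent chains) and Gm9761 (Srsf3, a splicing factor) followed with differences from 6.98 to 4.85 on the log2(TPM + 1) scale. Each of these 8 was listed at 0 in 2 to 5 cells of the range 20-25 and in no cell of the range 11-17. Gm15452 was at 663 to 939 TPM in cells 11-17 and, in the range 20-25, at 423 TPM in cell 22, 651 TPM in cell 23 and 0 in the other 4 cells. Over the 38 pseudogenes that were higher, 34 had at least 1 relative of 95% identity over 80% of their length. Their median difference was 2.31 for all 38 and 0.49 for the summed families of the 34, and 19 of the 34 family sums did not overlap between the ranges. Among the 19, the sum of Rps23-ps1 was lower in cells 11-17, with a difference of -0.53. Gm12624 and Gm12614 had the same family sum, as did Gm5616 and Gm8741, so the 19 are not all distinct.

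Small RNA genes gave fewer calls, 5 higher (4.59%) and 2 lower (1.83%) of 109, beside 8.85% and 2.33% of all genes tested. TPM is scaled by length, so in short genes a few reads can give a high value. The mitochondrial methionine tRNA mt-Tm had 1862, 1666 and 1247 TPM in cells 11, 16 and 17 and 88.3, 0, 704, 235, 229 and 434 TPM in cells 20 to 25, with a difference of 3.88 (SD of cells 2.14). The 7SK RNA Rn7sk, a regulator of transcription elongation, had 4506, 4809 and 3669 TPM in cells 11, 16 and 17 and 1131 to 3318 (median 2570.2) TPM in cells 20 to 25, with a difference of 0.90 (SD of cells 0.52). The annotated miRNA genes Mir6240 and Mir6236 were also higher, at 11647, 12156 and 5641 TPM against 2130.0 to 4653 (median 4045) TPM and at 3853, 5419 and 1886 TPM against 808 to 1683 (median 1479) TPM. Mir703 was lower, at 35.6, 91.2 and 13.9 TPM in cells 11, 16 and 17 and 236 to 1105 (median 518) TPM in cells 20 to 25. The mature sequences of these 3 annotated genes, from RefSeq (GRCm38.p6), are shown with the seed (bases 2 to 8) in capitals, because they are what the annotation gives as the products of these genes. The values cover the whole annotated gene of 109 nt (Mir703), 117 nt (Mir6240) or 123 nt (Mir6236) and do not measure the mature miRNA. The GC content of the gene was 31.2% for Mir703, 47.0% for Mir6240 and 56.1% for Mir6236.
mmu-miR-703: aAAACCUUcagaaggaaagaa
mmu-miR-6240: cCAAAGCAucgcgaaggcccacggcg
mmu-miR-6236: gCCGUCGCcggcagucagg
They lie at chr5:98475616-98475636 (minus strand), chr5:114851973-114851998 (plus strand) and chr9:110281353-110281371 (plus strand), and no pair shares a seed.

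Detection in every cell of a range and in none of the other was almost one-sided. Of 24206 genes above 0 in at least 1 cell, 38 (0.157%) were above 1 TPM in all of cells 11-17 and listed at 0 in all of cells 20-25, and 3 (0.0124%) were the reverse, although a gene must pass 1 TPM in 6 cells for the second count and in 3 for the first. The snoRNA gene Gm22744 was among the 38, at 159.7, 174 and 162 TPM in cells 11, 16 and 17. It is 65 nt long (GRCm38, chr19:8725092-8725156, plus strand) and lies within an exon of an annotated transcript of Snhg1, a host gene of snoRNAs. The host ran the other way, at 186, 279 and 288 TPM in cells 11, 16 and 17 and 298 to 495 (median 431) TPM in cells 20 to 25. Its sequence is shown with the motifs TGATGA (position 7) and CTGA (position 57) in capitals, letters that C/D box snoRNAs carry near their ends. Of the 1507 annotated snoRNA genes, 26.1% hold TGATGA and 24.02% hold TGATGA followed by CTGA on the gene's strand, which describes the letters and not a function.
Gm22744: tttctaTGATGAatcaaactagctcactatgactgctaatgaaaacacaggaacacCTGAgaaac

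Of the 3 genes of the reverse kind, Gm26377 had by far the highest TPM and the largest difference of the 160 lower genes. All 3 were listed at 0 in cells 11-17, so they passed the filter on mean level only through cells 20-25. Their place among the lower genes therefore rests in part on that filter. The annotated miRNA gene Gm26377, of 108 nt with 32.4% GC, was listed at 0 in cells 11, 16 and 17. It had 5145, 3912, 2898, 1145, 5632 and 6873 TPM in cells 20 to 25. It lies at chr9:78478528-78478635 on the minus strand, inside an untranslated part of an exon of Eef1a1, an elongation factor of translation, and 79 nt from the 3' end of that gene. Eef1a1 was higher in cells 11-17, at 2555, 3094 and 2528 TPM against 1782 to 2431 (median 2139) TPM. Reads in the shared bases can be given to either gene. TPM is scaled by length, so in a gene as short as Gm26377 a few reads can give a high value. The other 2, Gm43079 and Gm44987, are annotated as antisense RNAs, overlap exons of Acad9 (same strand) and Gga2 (opposite strand), and had 8.92 to 55.7 and 6.45 to 125 TPM in cells 20 to 25. Gm45507, antisense to the exons of Bnip3, had 0, 3.37 and 106 TPM in cells 11, 16 and 17 and 294 to 698 (median 556) TPM in cells 20 to 25. Bnip3, a regulator of mitochondrial autophagy, was at 224 to 340.0 and 81.97 to 263 TPM with overlap.

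Among protein-coding genes the largest negative difference was that of the kinase gene Ulk4, at 0.320, 1.43 and 0.950 TPM in cells 11, 16 and 17 and 91.6, 93.9, 123, 46.7, 358 and 189.6 TPM in cells 20 to 25. Nearly all of it belonged to Ulk4-210, a processed transcript of 759 nt at the 3' end of the gene with 91.1% of the exonic bases 5' of it, which held at least 98.9% of the gene's TPM in cells 20-25 and was listed at 0 in cells 11-17. The mRNA transcript Ulk4-201 stood at 0.31 to 1.41 TPM in cells 11-17 and at 0 to 0.55 TPM in cells 20-25. Cetn3, a centrin of the centriole, was lower too, at 18.5, 33.2 and 82.1 TPM in cells 11, 16 and 17 and 121 to 402 (median 183) TPM in cells 20 to 25, with a difference of -4.02 within embryo 1 and -1.47 within embryo 2. Higher protein-coding genes included the epithelial transcription factor Elf3, at 93.3, 92.3 and 76.6 TPM against 4.23 to 35.1 (median 19.6) TPM, and Fabp3, a fatty acid binding protein, at 91.2, 82.9 and 106 TPM against 0 to 60.04 (median 4.74) TPM. Abcb5, a transporter, was at 23.3 to 45.5 against 2.73 to 10.1 TPM, and Gprc5a, an orphan receptor, at 47.6 to 63.98 against 0 to 36.8 TPM. Ublcp1, a phosphatase, was lower, at 10.97 to 50.3 against 58.9 to 148 TPM. These genes were taken, after the values had been seen, from the 8 protein-coding genes with the largest difference in each direction.

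The gene groups differed to unequal degrees. Of the replication-dependent histone genes, whose mRNAs lack a poly(A) tail, 43, 54 and 50 of 70 were detected in cells 11, 16 and 17 and 36, 21, 31, 41, 41 and 40 in cells 20 to 25. Of the 18 at the level tested, 3 (16.7%) were higher in every cell 11-17 and none lower, beside 8.85% and 2.33% of all genes tested, and the median difference was 1.25, beside 0.27. One of them, Hist1h2bk, had 97.3, 104 and 159 TPM in cells 11, 16 and 17 and 19.1 to 90.03 (median 55.7) TPM in cells 20 to 25. Genes of the same histone class are similar in sequence, which was not measured here, and their values are uncertain for that reason. The most abundant, Hist1h2ap, overlapped, at 256 to 568 against 0 to 804 TPM.

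Of 83 ribosomal protein genes at that level, 9 were higher and 7 lower, with a median difference of 0.17, beside 0.27 over all genes. These were 10.8% and 8.43% of the list, beside 8.85% and 2.33% of all genes tested. Rps23 had the largest difference of the 7, at 414, 1013 and 889 TPM in cells 11, 16 and 17 and 2161 to 3154 (median 2735) TPM in cells 20 to 25. The identical pseudogene Rps23-ps1 was higher, and the sum over the 15 genes of the family differed by -0.53 in place of -1.91, lower without overlap at 2056 to 3343 against 3563 to 4741 TPM. Rps3 was among the 9 higher genes, at 1209.6 to 1348 against 715 to 957 TPM. Of 14 widely used reference genes at that level, 5 (35.7%) were higher and 1 (7.14%) lower, beside 8.85% and 2.33% of all genes tested, with a median of 0.45. Hspa8, a constitutive chaperone, had 7046, 7612 and 6114 TPM in cells 11, 16 and 17 and 3589 to 4996 (median 4230.5) TPM in cells 20 to 25. Ppia, a peptidyl-prolyl isomerase, was the lower one, at 1244 to 1388 against 1495 to 1719 TPM. Its identical pseudogene Gm10123 was higher, and the sum over the 17 genes of the family overlapped, at 1661 to 1953 against 1677 to 1873 TPM, so the Ppia value is uncertain. Of 14 abundant non-coding RNA genes at that level, Rn7sk was higher and the snoRNA host genes Snhg1 and Snhg5 were lower (7.14% and 14.3%, beside the same 8.85% and 2.33%), with a median of -0.35.

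Among the blastomere markers, 10 were at the level tested, and Pou5f1, a pluripotency transcription factor, was the only one of these that was higher, at 346, 231 and 227 TPM in cells 11, 16 and 17 and 117 to 226 (median 151) TPM in cells 20 to 25. Cell 17 and cell 20 differed by less than 2 TPM. Pou5f1 was 10% of these markers, beside 8.85% of all genes tested, and the group's median was 0.20. No gene passed among 5 maternal genes (median 0.11), 7 stress genes (median 0.25) and 16 very long mRNAs (median 0.37). Of all genes tested, 8.85% were higher and 2.33% lower, and at those shares lists this small can hold none. Of 32 genes of the mitochondrial genome, mt-Tm was higher (3.1%) and none lower, beside the same 8.85% and 2.33%, with a median of -0.33.

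The 3 cells of the range 11-17 also resembled each other more closely than the cells of the range 20-25 did. Over the 6860 genes at the level tested, the mean absolute difference of log2(TPM + 1) between a pair of cells was 0.637 to 0.691 for the 3 pairs of the range 11-17 and 0.774 to 1.01 for the 15 pairs of the range 20-25. The pair of the same embryo in the first range, cells 16 and 17, was at 0.637, and the 7 pairs of the same embryo in the second were at 0.774 to 0.918. Pairs share cells and are not independent, and the cells of the range 11-17 without a column could not be compared. The 10 most abundant genes held 10.9 to 11.9% of TPM in cells 11-17 and 10.7 to 15.7% in cells 20-25. The effective number of genes, the exponential of the Shannon entropy of the TPM shares, was 1789, 1785 and 1586 in cells 11, 16 and 17 and 1124 to 1627 (median 1271) in cells 20 to 25. Cell 24 lay above cell 17, and the difference of 367 compared with an SD of 207 between cells.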

How the data were processed

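RNA of 9 mouse 8-cell blastomeres (3 numbered 11-17, 6 numbered 20-25) was analysed from the deposited gene and transcript tables. The authors aligned a common number of reads per cell with Hisat and estimated TPM values per gene and per transcript with RSEM on GENCODE M25 (mm10), within the ramdaq pipeline. The submitters' processing notes name BWA 0.7.17-r1188 and the builds hg38 and mm10. TPM sums to the same total in each cell and keeps no read depth, so no counting interval was given, and a gene listed at 0 may be a failed estimate. Replication states of the same cells came from the deposited binarised score per genome bin. All 9 column names repeat 1 embryo and cell, and columns were matched to samples by assay and closing number. In each of 3 tables, 14 columns carried no label of this series and were not used. RNA of 4 further cells, all numbered within the range 11-17, had no column and was not analysed here.

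A gene or transcript was detected at TPM > 1. Levels were compared as log2(TPM + 1) over genes with a mean of at least 3, and a gene was called higher or lower when no cell of a range overlapped the other. Biotype, length, GC content and exons came from GENCODE M21 (GRCm38), which matched 55227 of 55487 genes and 141469 of 142699 transcripts. Pseudogenes were aligned to transcripts with blastn 2.17.0, and a family held genes of at least 95% identity over 80% of the length. The SD between cells is pooled within embryo and range. Nothing in the labels separates biological from technical spread. The text names the genes with the largest differences among those without overlap (10 per direction, and 3 to 5 per class, isoform or transcript result), with hosts, parents and list members. The members and lists were chosen with earlier results of these data known. Alternatives changed the threshold, filter, pseudocount, scaling, embryo and cells. Scripts used Python 3.11.15, numpy 2.4.6, pandas 2.3.3 and matplotlib 3.10.9 and were tested on simulated data.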

Additional observations from a re-analysis of the deposited data

Results flagged for a closer look

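Of 127 measures examined, 13 had a cell that stood apart within the range 20-25, where the 6 cells allow the check, by a gap to the nearest cell above Dixon's 95% critical value for 6 samples. Chance flags about 5% of such groups. In cell 21, 14 mitochondrial tRNA genes and as many transcripts of that class were detected, fewer than in the other 5 cells. Cell 21 also stood apart with 33 rRNA genes and 33 rRNA transcripts detected. The mitochondrial tRNA mt-Tm was listed at 0 in cell 21. On the log2(TPM + 1) scale, Gm4617 was at 2.29 in cell 23 and Gm48583 at 6.38 in cell 22, each beside 5 cells listed at 0. Gm47025 was high in cell 20, at 9.503, and Gm43079 was low in the same cell, at 3.31. Gkap1 was low in cell 25, at 1.98. Mir6240 and Mir6236 were low in cell 22, at 11.06 and 9.66. Snrpn was low in cell 24, at 5.64. The range 11-17 has 3 cells and was not examined in this way. No measure had opposite directions of every cell in the embryos. The measures include levels of genes chosen for having no overlap between the ranges, and for those this outcome was fixed.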

How the results depend on the processing

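Detection depended on the threshold. At TPM > 0 the difference was 2353 genes, 8476 transcripts, 1313 protein-coding genes, 435 long non-coding RNA genes and 6.97 percentage points of transcripts over 5 kb. At TPM > 0.1 it was 2323 genes, 8328 transcripts, 1295 protein-coding genes and 426 long non-coding RNA genes. At TPM > 5 it was 714 genes, 2100 transcripts, 0.175 transcripts per gene and 15.3 long non-coding RNA genes. At TPM > 10 it was 614 genes, 1184 transcripts and 0.116 transcripts per gene, and long non-coding RNA genes reversed to -1. The cause was not tested. The retained intron and decay share moved to -2.74 points within embryo 1 and reversed to 0.551 within embryo 2.

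Higher genes numbered 998 without the level filter, 351 at a minimum of 5, 285 after median scaling, 209 with GC bins set equal (chosen after seeing the data), 3023 within embryo 1 and 1309 within embryo 2. Lower genes numbered 295 after median scaling, 1556 within embryo 1 and 493 within embryo 2. Fewer cells make non-overlap easier by construction. Leaving out 1 cell gave 1226 to 1680 genes, 5261 to 6714 transcripts, 0.240 to 0.313 transcripts per gene, 667 to 1133 protein-coding genes, 160 to 230 long non-coding RNA genes, 2.96 to 5.00 points over 5 kb, a share difference of -0.933 to -0.143 points, 321 to 434 effective genes, 675 to 1028 higher genes and 176 to 284 lower genes. Higher genes rose to 1028 without cell 17, and lower genes to 284, 259 and 247 without cell 11, 21 or 17. Single named genes kept their direction in 293 of 293 settings. They were chosen for having no overlap between the ranges, so the embryo and pseudocount settings could not reverse them. Cells of the ranges carry no numbers that pair them. With the embryos weighted equally, the differences were 1524 genes and 6060.5 transcripts. TPM carries no depth, so what depth limits was not estimated.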
